A study of Homo sapiens with 32 samples.

Results

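The matrix metalloproteinases (MMPs), the ADAM and ADAMTS proteases, the ADAMTS-like proteins (ADAMTSL) and the tissue inhibitors of metalloproteinases (TIMPs) were examined in MCF10A cells, an immortalized human mammary epithelial cell line. Members were all protein-coding genes whose GENCODE symbol follows these family names and that have a row in the count table. This gave 57 of 17788 genes, namely 18 MMP, 3 TIMP, 14 ADAM, 17 ADAMTS and 5 ADAMTSL genes. The low-count filter was passed by 47 members. The 10 others reached at most 19 counts in any library and were not tested. They were MMP8, MMP21, ADAM20, ADAM28, ADAMTS2, ADAMTS8, ADAMTS18, ADAMTS20, ADAMTSL1 and ADAMTSL2.

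MMPs, ADAMs and ADAMTS enzymes share a zinc-dependent catalytic domain and are made as inactive precursors that must be cleaved or unfolded to work. MMPs degrade collagens, laminins and other matrix proteins, ADAMs mostly cut the extracellular parts of membrane proteins, and ADAMTS enzymes process proteoglycans, procollagens and fibrillin-rich fibres. TIMPs block the catalytic sites, and ADAMTSL proteins resemble ADAMTS enzymes without the protease domain. In mammary epithelium these proteins take part in duct growth and involution, and TGFβ is a known regulator of several of them during epithelial-mesenchymal transition.

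RNA-seq libraries came from single-cell-derived clones that had passed through CRISPR/Cas9 editing. Clones 27 and 2 kept intact JUNB (WT), and clones 1 and 65 carry an extended JUNB deletion (mut; GEO calls them knock-out), which leaves a smaller JUNB polypeptide. JUNB is a subunit of the transcription factor AP-1. Each clone received solvent (time 0 in the labels, although by the study's methods solvent was given for 72 h and all plates were collected together) or TGFβ1 at 5 ng/ml for 6, 24 or 72 h, in 2 replications, so that each of 8 groups held 4 libraries and the data 32. All cells grew with horse serum, EGF, insulin, hydrocortisone and cholera toxin. The 3 treatment times of a genotype share the same solvent libraries. With 2 clones per genotype, a difference between WT and mut cannot be told apart from one between these clones, and p-values measure the spread between libraries of these clones.

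A series denotes 1 clone with 1 replication number, such as 27-2. Where 4 values are given for a group they stand in the order 27-1, 27-2, 2-1 and 2-2 for WT and 1-1, 1-2, 65-1 and 65-2 for mut. Their unit is CPM, the count scaled to the total of the library, and log2 fold changes are given with the standard error of the limma-voom fit. A gene is called where the Benjamini-Hochberg adjusted p over all genes tested is under 0.05. Only called changes are described as rises or falls.

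Library totals lay between 39702412 and 54651906 counts. All 9 epithelial markers examined were present, with KRT5 at 3262 to 8158 CPM and EPCAM at 9.23 to 82.7 CPM, and their summed level ranged from 10046 to 17417 CPM. The leukocyte markers PTPRC and CD3E reached at most 2 counts, and the endothelial marker VWF at most 6 counts. The leukocyte list, carried by CD68 and CD14, summed to 16.4 to 34.0 CPM. COL1A2, a defining fibroblast marker, reached at most 0.364 CPM. The 4 measured fibroblast markers of 5 listed summed to 5.71 to 16.6 CPM in WT and 26.2 to 34.5 CPM in mut libraries at 72 h, mainly through DCN. The part of these levels in the results was not tested. JUNB itself was at 89.7, 94.0, 116.8 and 90.0 CPM in WT solvent and at 69.2, 77.5, 127.7 and 172.0 CPM in mut solvent libraries, so that its abundance does not check the genotype labels. At 72 h it was at 165.1, 162.8, 172.8 and 174.7 CPM in WT and at 122.5, 233.6, 227.8 and 359.3 CPM in mut libraries. Its level after 6 and 24 h of TGFβ1 also overlapped between the genotypes, from 187 to 297 CPM in WT and from 129 to 518 CPM in mut. Some libraries stood apart. The library mut solvent 1-2 had a score of -37.9 on the first principal component, against -58.4 to -55.1 for its 3 fellow libraries, and the 4 libraries of WT series 27-2 lay at -53.6 to -35.1 on the third, with all others at -14.6 or above. The library mut 6 h 1-2 had -52.2 on the first component, against -40.2 to -37.4 for its fellows, and without it 5 members instead of 1 were called at 6 h in mut. Values without series 1-2 or 27-2 are given where they change a call or a level by much.

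Promoter sequence was examined because JUNB acts through AP-1 sites. RefSeq windows around the start site (GRCh38.p14) were available for 37 of the 57 members. The AP-1 motif TGANTCA, which reads the same on both strands, occurred in 3 of these 37 windows (8.11%), and in 7.76% of all 27305 windows of this length. The palindromic SMAD motif GTCTAGAC occurred in 0 of the 37, against 0.201% of all windows. Among tested genes the AP-1 motif occurred in 10.3% of 29 member windows and in 5.08% of 11690 windows. MMP1, MMP2, MMP3, MMP9 and MMP13 are among the members without a window. The 3 windows with the motif are shown from 150 bases before the start site to the last base before it, 5′ to 3′ on the gene's strand, with the motif in capitals. MMP10 is a stromelysin that was low in mut cells, MMP7 is the matrilysin, which was called in no comparison, and ADAMTS12 is a cartilage-matrix protease. ADAMTS12 rose after 72 h of TGFβ1 in mut cells, not in all alternatives. Its mean level at 72 h was 0.127 CPM per kilobase of the canonical transcript in WT and 0.125 in mut. All 3 lie on the minus strand, MMP10 at chr11:102780629-102780778, MMP7 at chr11:102530748-102530897 and ADAMTS12 at chr5:33891991-33892140.
MMP10: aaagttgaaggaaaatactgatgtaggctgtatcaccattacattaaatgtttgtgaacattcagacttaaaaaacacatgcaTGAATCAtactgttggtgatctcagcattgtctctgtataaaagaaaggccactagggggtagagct
MMP7: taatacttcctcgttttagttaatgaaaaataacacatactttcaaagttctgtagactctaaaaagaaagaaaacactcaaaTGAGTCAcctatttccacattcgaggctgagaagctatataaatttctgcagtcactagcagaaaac
ADAMTS12: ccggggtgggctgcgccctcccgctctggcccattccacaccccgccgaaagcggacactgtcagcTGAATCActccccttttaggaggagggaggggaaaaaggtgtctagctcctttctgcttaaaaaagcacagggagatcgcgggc

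Abundance differed widely among the members. Per kilobase of the canonical transcript and averaged over all 32 libraries, TIMP1, a broad MMP inhibitor, led with 3916 CPM per kb. It was followed by the membrane proteases ADAM15 (230 CPM per kb) and ADAM9 (135 CPM per kb) and by MMP14 (103 CPM per kb), the membrane-type protease that activates the MMP2 precursor. TIMP3 (48.5 CPM per kb) and TIMP2 (42.6 CPM per kb) came next, ahead of ADAM19 (27.9 CPM per kb) and of the sheddase ADAM17 (16.8 CPM per kb). The abundant members in solvent were thus the TIMPs, MMP14 and a few ADAMs, while the secreted MMPs and the ADAMTS enzymes were low. Treatment changed this order for some of them. ADAM19 went from 7.62 to 90.6 CPM per kb in WT libraries between solvent and 72 h, and from 2.66 to 8.57 CPM per kb in mut libraries. The mut solvent mean was 0.538 CPM per kb without the library 1-2.

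**Figure D1:**
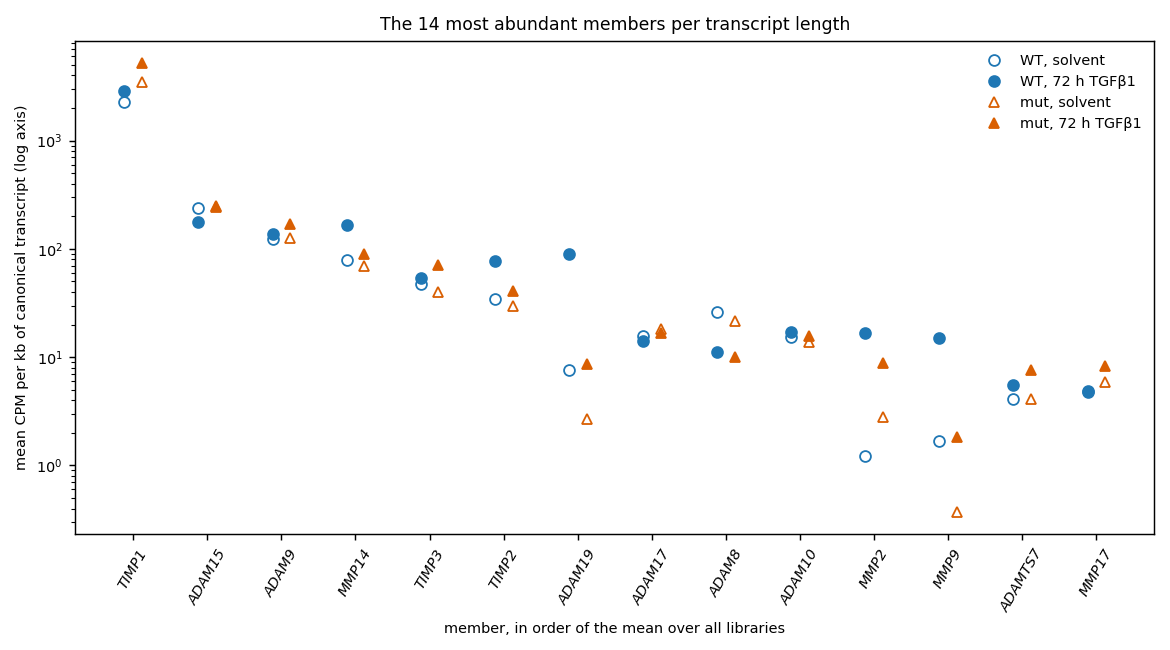
Mean abundance of the 14 members with the highest level per transcript length, in CPM per kb on a log axis, with members ordered along the horizontal axis by their mean over all libraries. Circles are WT and triangles mut groups, open for solvent and filled for 72 h of TGFβ1. In WT, ADAM19 went from 7.62 to 90.6, MMP2 from 1.23 to 16.6 and MMP9 from 1.68 to 15.2 CPM per kb.

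TGFβ1 raised many members and lowered few. In WT clones, 10 of the 47 tested members rose and 1 fell at 6 h, where 5.13% of all 14865 genes tested rose and 11.9% fell. At 24 h, 19 members rose and 4 fell, against 14.1% and 38.0% of all genes. After 72 h, 18 rose and 7 fell, against 13.9% and 38.4% of all genes. In mut clones a single member, the proteoglycan-cleaving ADAMTS15, rose at 6 h and 0 fell, where 2.06% of all genes rose and 4.94% fell. At an unadjusted p under 0.05, 5 were higher and 4 lower, and of the adjusted calls at 6 h there were 2 with the quasi-likelihood (QL) test of edgeR and 2 with DESeq2. With each series as a block, 20 members were called at 6 h in WT and 7 in mut. The share of all genes called with the block is not given, so these block counts are not a result about the members. At 24 h, 14 members rose and 2 fell in mut, against 6.75% and 17.1% of all genes. At 72 h, 16 rose and 4 fell, against 7.81% and 16.3% of all genes. The median log2 fold change of the 47 members was 0.41 at 24 h and 0.32 at 72 h in WT, and 0.30 and 0.36 in mut. The median over all genes was -0.18 and -0.19 in WT and -0.10 and -0.09 in mut. Scaling by trimmed mean of M-values (TMM) factors moved the WT medians of all genes to 0.00 at 24 h and -0.03 at 72 h. With it, 23 members rose and 4 fell in WT at 72 h, against 21.5% and 23.3% of all genes.

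Of the members, 14 were called at 72 h in both genotypes, all 14 in the same direction, whereas 11 were called in WT alone and 6 in mut alone. Of all genes, 19.5% were called in both (98.8% of these in the same direction), 32.7% in WT alone and 4.57% in mut alone. These comparisons use separate libraries. Leaving out MMP3, whose WT solvent libraries are all at 0, the change was smaller in mut for 12 of 13 shared members, the exception being ADAMTS7. Of all genes called in both, 76.7% changed the same way and less in mut. Without series 1-2 the change was smaller in mut for 9 of the 13, since ADAM19, ADAMTS6 and MMP9 no longer were. The difference between the responses, tested as the interaction, was called for 0 members at 6 h, where 0.00673% of all genes had a higher and 0.0673% a lower response in mut. The count was also 0 at 6 h with the QL test and with DESeq2, and at an unadjusted p under 0.05 it was 1 higher and 1 lower. At 24 h, 2 members had a higher and 3 a lower response in mut, against 7.72% and 1.93% of all genes, and with TMM factors 1 and 3 members, against 2.98% and 2.81%. At 72 h, 3 had a higher and 5 a lower response in mut, against 9.40% and 2.92%, and with TMM factors 3 and 6 members, against 4.53% and 4.15%. With each series of clone and replication as a block, 9 members were called at 24 h and 17 at 72 h, again without a share of all genes to set them against. The median interaction of all genes at 72 h was 0.10, and 0.02 with TMM factors. Altogether 38 members were called in 1 or more of the 13 comparisons, as were 75.7% of all genes. The 9 tested members with no call were ADAM17, ADAM22, ADAM23, MMP7, MMP15, MMP17, MMP23B, MMP25 and ADAMTS13.

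**Figure D2:**
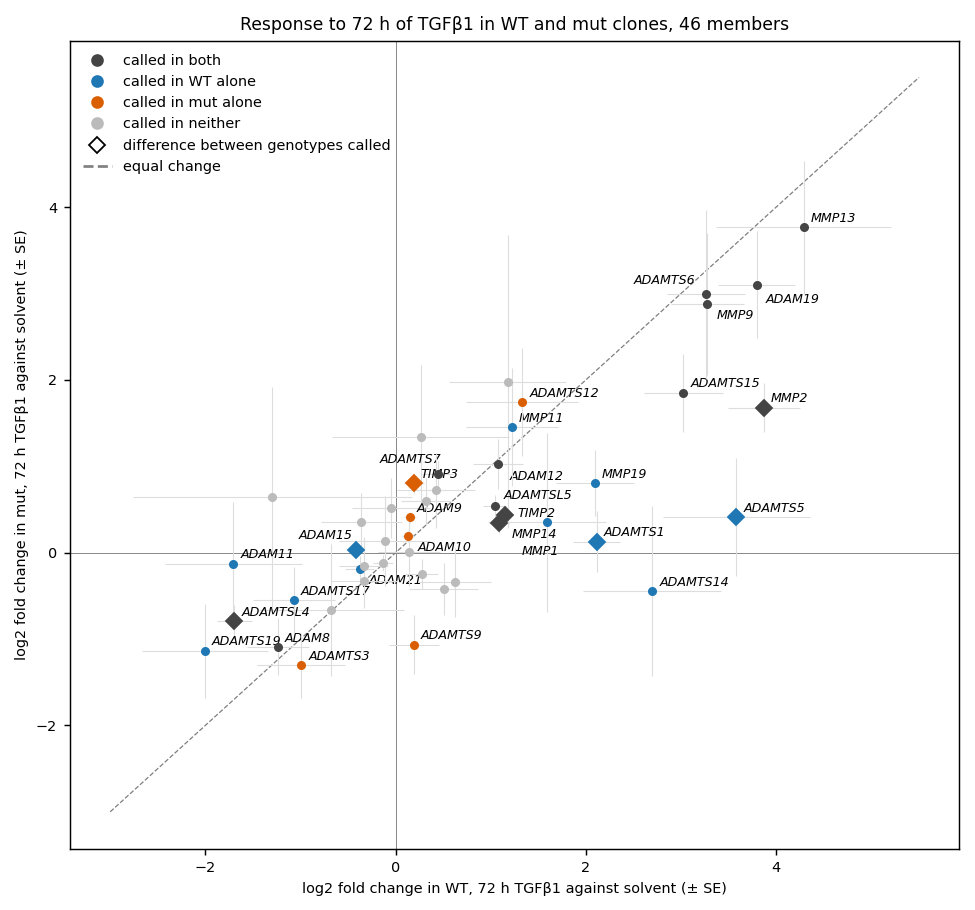
Change after 72 h of TGFβ1 in mut clones (vertical axis) against WT clones (horizontal axis), as log2 fold change ± SE, for 46 members. MMP3 is left out because its WT solvent libraries are all at 0. Colours give the genotypes in which a change was called, diamonds mark a called difference between the genotypes, and the dashed line marks equal change. MMP2 lies at 3.87 in WT and 1.68 in mut, and TIMP3 at 0.19 and 0.80.

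The gelatinases MMP2 and MMP9 digest denatured collagen and basement membrane collagen. MMP2 (chromosome 16, 55389700 to 55506691, plus strand, GRCh38) was at 4.17, 7.53, 3.11 and 2.42 CPM in WT solvent and at 47.9, 70.8, 46.5 and 67.6 CPM in WT at 72 h. Mut libraries had 7.05, 12.9, 10.6 and 9.19 CPM in solvent and 31.8, 34.7, 28.1 and 29.0 CPM at 72 h. The 72 h libraries lay above all solvent libraries of their genotype, and at 72 h every mut library lay below every WT library. The rise at 72 h was 3.87 ± 0.38 in WT (adjusted p = 2.95e-09) and 1.68 ± 0.28 in mut (adjusted p = 6.24e-05). The response in mut was smaller by -2.19 ± 0.47 (adjusted p = 0.00275), and at 24 h by -2.04 ± 0.48 (adjusted p = 0.00759). In solvent, MMP2 was higher in mut by 1.30 ± 0.42 (adjusted p = 0.0389), the only member called higher there, although the libraries overlapped. That solvent call was lost without series 1-2 (1.17) and without any 1 of the WT libraries 27-1, 2-1 and 2-2 or the mut libraries 65-1 and 65-2, with differences of 1.09 to 1.34. At 72 h MMP2 was lower in mut by -0.89 ± 0.21 (adjusted p = 0.00148).

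MMP9 (chromosome 20, 46008908 to 46016561, plus strand) was at 4.57, 4.74, 5.00 and 1.36 CPM in WT solvent, at 49.4, 61.5, 54.6 and 49.9 CPM at 24 h, then at 50.0, 29.0, 29.7 and 33.1 CPM at 72 h. Mut libraries had 0.317, 2.52, 0.210 and 0.463 CPM in solvent, 13.6, 8.29, 4.41 and 8.08 CPM at 24 h, then 3.48, 6.69, 1.71 and 5.07 CPM at 72 h. Treated mut libraries thus stayed below treated WT libraries at both times, without overlap, and in mut solvent only 1-2 overlapped with WT. MMP9 rose by 3.28 ± 0.38 in WT (adjusted p = 5.36e-08) and by 2.87 ± 0.82 in mut (adjusted p = 0.0109) at 72 h, or by 3.28 in mut without series 1-2. Mut was lower than WT by -2.74 ± 0.28 at 24 h (adjusted p = 2.7e-08) and by -3.15 ± 0.36 at 72 h (adjusted p = 8.91e-08). The solvent difference of -2.75 ± 0.83 (adjusted p = 0.0274) lost its call when any of 6 of the 8 solvent libraries was left out, with values of -2.69 to -2.32, the exceptions being WT 2-2 and mut 1-2. The interaction at 72 h was -0.40 ± 0.91 (adjusted p = 0.827) and 0.01 without series 1-2, an interval too wide to tell whether the fold responses differed.

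MMP14 and TIMP2 form with the MMP2 precursor the complex in which MMP2 is activated at the cell surface, and TIMP2 also inhibits MMPs. MMP14 (chromosome 14, 22836560 to 22849041, plus strand) was at 280.1, 318, 278 and 281 CPM in WT solvent and at 653, 628, 568 and 617 CPM at 72 h. Mut libraries had 228, 283, 249.9 and 274.5 CPM in solvent and 284, 314, 309.6 and 408.5 CPM at 72 h. All WT libraries at 72 h lay above all WT solvent libraries and above all mut libraries at 72 h, whereas the lowest mut library at 72 h barely exceeded the highest in mut solvent. The rise was 1.09 ± 0.11 in WT (adjusted p = 2.51e-09) and 0.34 ± 0.10 in mut (adjusted p = 0.0188). The mut call was lost without mut solvent 1-1 (0.28) or mut 72 h 65-2 (0.23). The difference between the responses was -0.66 ± 0.15 at 24 h (adjusted p = 0.00565) and -0.75 ± 0.15 at 72 h (adjusted p = 0.00144).

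TIMP2 (chromosome 17, 78852977 to 78925387, minus strand) was at 133, 129, 131 and 114 CPM in WT solvent and at 284, 243.2, 289 and 307 CPM at 72 h. Mut libraries had 116, 115, 105 and 98.5 CPM in solvent and 174.6, 162, 136 and 121 CPM at 72 h. Libraries at 72 h and in solvent were separate in both genotypes, and every mut library at 72 h was below every WT library. TIMP2 rose by 1.14 ± 0.09 in WT (adjusted p = 7.41e-11) and by 0.44 ± 0.09 in mut (adjusted p = 0.000632). The responses differed by -0.77 ± 0.13 at 24 h (adjusted p = 0.000512) and by -0.71 ± 0.13 at 72 h (adjusted p = 0.000679). For MMP2, MMP14 and TIMP2 alike, the smaller response of mut at 24 and 72 h was called in all 25 alternatives tried.

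The collagenases, which cut fibrillar collagen, and the stromelysins, which cut a range of matrix proteins and other MMP precursors, were low. MMP1, MMP3, MMP7, MMP8, MMP10 and MMP13 lie in a cluster on chromosome 11. The collagenase MMP13 was at 0.0839, 0.351, 0 and 0 CPM in WT solvent and at 0.967, 1.40, 0.932 and 0.503 CPM at 72 h. Mut libraries had 0.0846, 0.0898, 0.0421 and 0.0804 CPM in solvent and 1.21, 1.03, 0.949 and 1.25 CPM at 72 h. Every library at 72 h was above every solvent library of its genotype. MMP13 rose by 4.29 ± 0.92 in WT (adjusted p = 0.000298) and by 3.76 ± 0.77 in mut (adjusted p = 0.000569), and mut minus WT at 72 h was 0.29 ± 0.41 (adjusted p = 0.615), with overlapping libraries. At 24 h MMP13 was called lower in mut, with means of 1.61 CPM in WT and 0.811 CPM in mut, although the libraries overlapped there too.

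MMP1, the interstitial collagenase, differed from MMP13 at 72 h. Its mean WT level went from 0.0783 CPM in solvent to 0.592 CPM after 6 h, then stood at 0.499 CPM after 24 h and 0.264 CPM after 72 h. The rise in WT was called at all 3 times, at 72 h in 9 of 16 alternatives. In mut, the 4 libraries at 6 h were at 0, and the 24 and 72 h libraries reached at most 0.131 CPM. MMP1 was at least 9.22-fold lower in mut at 6 h, with each mut library set to a floor of 3 counts (adjusted p = 3.9e-06), and it was also called lower at 24 h (adjusted p = 0.000238) and 72 h (adjusted p = 0.00073). The stromelysin MMP3 was at 0 in all WT solvent libraries, so that its rise in WT was at least 3.46-fold at 6 h, with bounds of 5.43-fold at 24 h and 3.11-fold at 72 h from the same floor. In mut it rose by 3.99 at 24 h and 2.50 at 72 h on the log2 scale, the latter call being kept in 9 of 16 alternatives.

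MMP10, the stromelysin whose promoter window holds the AP-1 motif, was at 0.923, 0.602, 0.315 and 0.353 CPM in WT solvent and at 5.32, 2.30, 6.33 and 3.08 CPM at 24 h. At 72 h its WT libraries stood at 2.02, 0.849, 1.17 and 0.914 CPM. Mut libraries had 0, 0.0449, 0 and 0 CPM in solvent, 0.854, 0.411, 0.241 and 0.234 CPM at 24 h, then 0.227, 0.0367, 0 and 0.0894 CPM at 72 h. All mut libraries were below all WT libraries of the same treatment. The rise in WT was 2.94 ± 0.55 at 24 h (adjusted p = 5.03e-05). At 72 h the change of 1.18 ± 0.62 was not called (adjusted p = 0.111), but was with each series blocked (1.27, adjusted p = 0.0162). The 72 h change was also called with DESeq2 (1.34, adjusted p = 0.0315) and without series 27-2 (1.42, adjusted p = 0.0371), and not in the other alternatives. MMP10 was lower in mut by -3.33 ± 0.60 at 24 h (adjusted p = 8.16e-05) and by -4.23 ± 1.05 at 72 h (adjusted p = 0.00209), and was also called lower in solvent (adjusted p = 0.0216) and after 6 h (adjusted p = 0.00139). The solvent call was lost without any 1 of the mut libraries 1-1, 65-1 and 65-2 and when the replications of a clone were summed.

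Of the other secreted MMPs, MMP11 and MMP19 were called. MMP11, which cleaves serpins and few matrix proteins, rose in WT from a mean of 0.585 to 1.59 CPM at 72 h (1.22 ± 0.48, adjusted p = 0.0353) and was lower in mut there (-1.25 ± 0.48, adjusted p = 0.0377). Its WT libraries at 72 h overlapped with solvent through 27-2 at 0.546 CPM, and these calls held in 9 and 11 of 16 alternatives. MMP19, a protease of basement membrane proteins, rose in WT from 1.86 to 8.19 CPM (2.09 ± 0.41, adjusted p = 0.000105). The change in mut, from 2.54 to 4.39 CPM, was 0.80 ± 0.38 (adjusted p = 0.129) and was called with the series block (adjusted p = 0.000688). The interaction of MMP19 at 72 h was -1.29 ± 0.56 (adjusted p = 0.132), and called with the block (adjusted p = 0.000656).

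Among the 6 membrane-type MMPs, MMP14 alone was called for a response to TGFβ1. MMP16, which also activates the MMP2 precursor, was at 1.97, 2.36, 2.66 and 1.61 CPM in WT solvent and at 0.868, 1.44, 0.80 and 1.05 CPM in mut solvent, without overlap. It was lower in mut in solvent by -1.07 ± 0.29 (adjusted p = 0.0142) and at 6 h by -1.65 ± 0.38 (adjusted p = 0.00209). At 72 h the levels overlapped, at 1.58, 2.71, 1.35 and 1.28 CPM in WT and 1.36, 0.808, 1.23 and 0.469 CPM in mut. The difference there of -0.89 ± 0.31 (adjusted p = 0.0233) lost its call without WT 27-2 (-0.63), mut 1-2 (-0.83) or mut 65-2 (-0.61). MMP24 was higher in mut at 6 h alone (1.16), with means of 0.443 CPM in WT and 0.992 CPM in mut, and kept this call in 6 of 16 alternatives. MMP15, MMP17 and MMP25 had no call. With each series blocked, the interaction at 72 h was called for MMP15 (-0.56, adjusted p = 0.00535) and for MMP17 (0.53, adjusted p = 0.0088). MMP17, anchored in the membrane by a lipid, was at 19.4 to 24.9 CPM in series 27-2 and at 6.10 to 12.6 CPM in the other WT libraries, those of 27-1 from the same clone included.

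The other inhibitors, TIMP1 and TIMP3, were higher in mut than in WT at 72 h. TIMP1 (chromosome X, 47582408 to 47586789, plus strand) was at 1223, 1403, 2270.5 and 2069 CPM in WT solvent, at 2266, 2539, 3584 and 4799.8 CPM at 24 h, then at 1419, 1704, 2528 and 3199 CPM at 72 h. Mut libraries had 2303, 1987, 3445 and 2935 CPM in solvent, 4614, 3793, 5269 and 5019 CPM at 24 h, then 3170.0, 3477, 4209 and 5121 CPM at 72 h. Within every WT group both libraries of clone 2 lay above both of clone 27. The mut clones were split likewise in every mut group, with both libraries of the clone listed last above both of the other. WT and mut libraries overlapped in every treatment. TIMP1 rose at 24 h by 0.91 ± 0.26 in WT (adjusted p = 0.00476) and by 0.83 ± 0.27 in mut (adjusted p = 0.0238). At 72 h the changes of 0.32 ± 0.26 (adjusted p = 0.314) and 0.59 ± 0.27 (adjusted p = 0.108) were not called, but were with each series blocked (adjusted p = 0.00131 and 1.92e-06). Mut exceeded WT at 72 h by 0.90 ± 0.27 (adjusted p = 0.00797), a call lost when the replications of a clone were summed (adjusted p = 0.0878). TIMP1 lies within SYN1 on the opposite strand, and between solvent and 24 h SYN1 went from a mean of 1.48 to 5.91 CPM in WT and from 5.09 to 22.9 CPM in mut. Without strand, reads of the pair cannot be told apart where the genes overlap.

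TIMP3, which binds to the matrix and also inhibits ADAM17 and aggrecan-cleaving ADAMTS enzymes, lies on chromosome 22 (32801705 to 32863041, plus strand). It was at 202, 256, 192 and 214 CPM in WT solvent and at 244, 260.5, 269 and 209.9 CPM at 72 h, with overlap. Mut libraries had 179, 197, 178.5 and 185 CPM in solvent and 294, 343.5, 281 and 379 CPM at 72 h, without overlap. TIMP3 rose in mut by 0.38 ± 0.11 at 24 h (adjusted p = 0.0105) and by 0.80 ± 0.11 at 72 h (adjusted p = 2.49e-06). The WT change of 0.19 ± 0.11 (adjusted p = 0.139) was called with TMM factors (0.35, adjusted p = 0.00965). It was also called with the QL test, DESeq2 and the series block and without WT solvent 27-2, and not in the other alternatives. The response at 72 h was larger in mut by 0.61 ± 0.15 (adjusted p = 0.00793), a call made in all 25 alternatives tried. SYN3, which overlaps TIMP3, went between solvent and 72 h from a mean of 6.22 to 0.226 CPM in WT and from 23.3 to 5.99 CPM in mut.

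ADAM19, a membrane protease first known from muscle cell fusion that cuts neuregulins, was the ADAM with the largest response. It lies on chromosome 5 (157395534 to 157575775, minus strand), where it overlaps CYFIP2 and NIPAL4. Its abundance was 42.7, 95.2, 41.0 and 18.6 CPM in WT solvent and 490.4, 589, 591 and 678 CPM at 72 h. Mut libraries had 2.03, 58.4, 5.35 and 3.08 CPM in solvent and 50.4, 58.0, 59.6 and 54.1 CPM at 72 h. The 4 mut libraries at 72 h were below all treated WT libraries and within the range of WT solvent, and in mut solvent 1-2 stood at the treated level. ADAM19 rose by 3.80 ± 0.41 in WT (adjusted p = 1.28e-08) and by 3.10 ± 0.62 in mut (adjusted p = 0.000461), the latter being 4.07 without series 1-2. It was lower in mut by -4.09 ± 0.54 at 6 h (adjusted p = 2.24e-06), -3.87 ± 0.42 at 24 h (adjusted p = 4.63e-08) and -3.40 ± 0.39 at 72 h (adjusted p = 1.05e-07). The solvent difference of -2.70 ± 0.63 (adjusted p = 0.00409) was -3.70 without series 1-2 (adjusted p = 0.00105), and with the QL test of edgeR it was -1.53 (adjusted p = 0.104). The interaction at 72 h was -0.69 ± 0.74 (adjusted p = 0.598) and 0.28 without series 1-2.

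The other ADAMs changed less. ADAM15, which carries an integrin-binding motif, was at 720.4, 645, 724 and 711 CPM in WT solvent and at 529, 507, 526 and 540.2 CPM at 72 h. Mut libraries had 726, 657, 775 and 719 CPM in solvent and 724, 693, 727 and 789 CPM at 72 h. All WT libraries at 72 h were thus below all others of these groups. ADAM15 fell by 0.41 on the log2 scale in WT (SE 0.06, adjusted p = 5.89e-07), or by 0.25 with TMM factors (adjusted p = 0.000961), and the mut change was 0.03 ± 0.06 (adjusted p = 0.75). The responses differed by 0.44 ± 0.08 at 72 h (adjusted p = 0.000651). ADAM15 was the member called higher in mut at all 3 treatment times, by 0.15, 0.32 and 0.48, where 7.21% of all genes were, and the 6 h call was kept in 5 of 17 alternatives.

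ADAM8, a protease of leukocytes and invasive cells, was at 96.4, 42.3, 120.4 and 83.9 CPM in WT solvent and at 41.8, 19.8, 46.5 and 36.4 CPM at 72 h, the ranges overlapping through 27-2 in solvent. Mut libraries had 79.8, 77.4, 59.2 and 63.7 CPM in solvent and 34.1, 43.7, 25.7 and 28.2 CPM at 72 h, without overlap. ADAM8 fell by 1.24 in WT (SE 0.33, adjusted p = 0.00243) and by 1.09 in mut (SE 0.33, adjusted p = 0.0159). ADAM21 was at 4.78, 4.44, 5.54 and 4.28 CPM in WT solvent and at 3.71, 3.22, 4.10 and 3.73 CPM at 72 h. Its fall of 0.38 in WT (SE 0.15, adjusted p = 0.0384) was 0.21 with TMM factors (adjusted p = 0.246) and was called in 7 of 17 alternatives.

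ADAM12, which cuts EGF-like ligands, rose in both genotypes at 72 h, by 1.08 ± 0.26 in WT from a mean of 7.01 to 14.3 CPM and by 1.03 ± 0.29 in mut from 4.90 to 9.89 CPM. The interaction was -0.06 ± 0.39. At 24 h ADAM12 stood lower in mut, at 9.16 to 13.8 CPM against 13.9 to 23.2 CPM in WT, while the genotypes overlapped at 72 h. ADAM9 rose in mut at 72 h, from a mean of 523 to 694.5 CPM (0.41 ± 0.06, adjusted p = 2.69e-05), where the WT change of 0.15 ± 0.06 had an adjusted p of 0.0512. ADAM10, the sheddase of NOTCH receptors and E-cadherin, rose in mut by 0.19 ± 0.06 (adjusted p = 0.0297, called in 12 of 17 alternatives), with 0.13 ± 0.06 in WT (adjusted p = 0.0837). In level, ADAM10 was lower in mut at 24 h, at 148 to 165 CPM against 171 to 190 CPM in WT, and the genotypes overlapped at 72 h. ADAM17, which sheds TNF and EGF-receptor ligands, was called in no comparison, with group means between 62.5 and 83.3 CPM. Of the 4 ADAMs without a catalytic zinc site, ADAM11 fell in WT at 72 h (-1.71, called in 7 of 16 alternatives) and ADAM32 was higher in mut at 72 h (1.18), both under 1 CPM on average.

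ADAMTS6, which acts on fibrillin-rich fibres and cell junctions, followed ADAM19. It lies on chromosome 5 (65148738 to 65481920, minus strand) and was at 2.68, 6.87, 2.82 and 0.730 CPM in WT solvent and at 21.7, 28.3, 20.4 and 26.5 CPM at 72 h. Mut libraries had 0.0846, 3.10, 0.126 and 0.161 CPM in solvent, 0.657, 0.411, 0.627 and 0.702 CPM at 24 h, then 2.59, 4.74, 1.35 and 1.18 CPM at 72 h. Every treated mut library lay below every WT library of the same time, and the solvent library 1-2 was again far above the other 3. ADAMTS6 rose by 3.26 ± 0.41 in WT (adjusted p = 2.01e-07). The rise of 2.99 ± 0.98 in mut (adjusted p = 0.0259) was 3.67 without series 1-2 (adjusted p = 0.0574) and 1.63 with the QL test (adjusted p = 0.0874). It was also not called without mut solvent 1-1 (2.47), 65-1 (2.64) or 65-2 (2.74), or mut 72 h 1-2 (2.57). Mut was lower than WT by -5.30 ± 1.03 at 6 h (adjusted p = 0.000404), -5.02 ± 0.73 at 24 h (adjusted p = 5.03e-06) and -3.44 ± 0.42 at 72 h (adjusted p = 2.68e-07). The solvent difference of -3.17 ± 0.98 (adjusted p = 0.03) was -1.95 and not called with the QL test. That call was also lost without WT solvent 27-2 (-2.72) or mut solvent 1-1 (-2.65), 65-1 (-2.82) or 65-2 (-2.92). The interaction at 72 h was -0.27 ± 1.06 (adjusted p = 0.902) and 0.41 without series 1-2.

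Of the 5 tested proteoglycan-cleaving ADAMTS enzymes, ADAMTS1 and ADAMTS5 had a called difference between the responses at 72 h. ADAMTS1 (chromosome 21, 26835755 to 26845409, minus strand), an aggrecan- and versican-cleaving enzyme, was at 2.31, 1.30, 2.23 and 3.07 CPM in WT solvent and at 10.9, 6.76, 10.5 and 10.1 CPM at 72 h. Mut libraries had 1.02, 2.22, 1.81 and 0.885 CPM in solvent and 1.55, 1.54, 1.71 and 1.21 CPM at 72 h. The WT libraries at 72 h stood above all others of these groups, while mut libraries stayed within the solvent range. In WT ADAMTS1 fell by 1.20 at 6 h (SE 0.38, adjusted p = 0.0275, called in 11 of 17 alternatives), to a mean of 0.987 CPM, and rose by 2.11 ± 0.25 at 72 h (adjusted p = 6.06e-08). The mut change at 72 h was 0.13 ± 0.35, and the difference between the responses was -1.99 ± 0.43 (adjusted p = 0.00288), called in all 25 alternatives tried.

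ADAMTS15 rose early in both genotypes, by 3.19 ± 0.41 at 6 h in WT (adjusted p = 3.23e-06), from a mean of 1.08 to 9.62 CPM. In mut it rose by 2.06 ± 0.45 (adjusted p = 0.00606), from 0.906 to 3.80 CPM. At 72 h it was still raised in both, by 3.02 ± 0.41 and 1.85 ± 0.45, and lower in mut by -1.41 ± 0.27 (adjusted p = 0.000141). ADAMTS9, which cleaves versican and aggrecan, was at 2.52, 1.40, 0.901 and 0.957 CPM in WT solvent and at 1.67, 1.66, 1.28 and 1.55 CPM at 72 h. Mut libraries had 1.06, 0.854, 1.66 and 1.01 CPM in solvent and 0.530, 0.661, 0.522 and 0.402 CPM at 72 h, so that the mut libraries at 72 h were below all others of these groups. ADAMTS9 fell by 1.06 in mut (SE 0.34, adjusted p = 0.0214), a call lost without mut solvent 65-1 (-0.87) or mut 72 h 65-2 (-0.95), and was lower in mut than in WT at 72 h by -1.53 ± 0.32 (adjusted p = 0.00043). The interaction of -1.26 ± 0.43 (adjusted p = 0.0512) was called with the series block (adjusted p = 0.0279), with TMM factors (adjusted p = 0.0493) and without series 1-2 (adjusted p = 0.0362). It was also called without WT solvent 27-1, WT 72 h 2-1, mut solvent 1-2 or mut 72 h 1-2, and not in the other alternatives. ADAMTS5, a main aggrecan-cleaving enzyme, stayed under 1 CPM, with means of 0.0497 and 0.366 CPM in WT and 0.0974 and 0.112 CPM in mut in solvent and at 72 h. It rose in WT by 3.58 ± 0.77 (adjusted p = 0.000317). Its interaction of -3.17 ± 1.03 (adjusted p = 0.042) was called in 9 of 24 alternatives and had an adjusted p of 0.128 with the QL test. ADAMTS4 rose in mut at 24 h alone (2.71), from a mean of 0.196 to 0.747 CPM.

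The procollagen N-proteinases ADAMTS3 and ADAMTS14 trim the amino-terminal propeptides of fibrillar collagens. ADAMTS14 was at 0.440, 0.100, 0.315 and 0.302 CPM in WT solvent and at 4.83, 0.769, 2.63 and 1.05 CPM at 72 h. Mut libraries had 0.0846, 0.270, 0.295 and 0.422 CPM in solvent and 0.189, 0.147, 0.166 and 0.179 CPM at 72 h. Every WT library at 72 h was above every other library of these groups. ADAMTS14 rose by 2.69 ± 0.73 in WT (adjusted p = 0.00274) and was lower in mut at 72 h by -3.31 ± 0.79 (adjusted p = 0.00138). Its mut change was -0.45 ± 0.99. The interaction of -3.14 ± 1.23 (adjusted p = 0.091) was called with the series block (-3.42, adjusted p = 0.00152), the QL test (-3.70, adjusted p = 0.0099) and DESeq2 (-3.74, adjusted p = 0.00104). It was also called with summed replications (-3.46, adjusted p = 0.0308) and without WT 72 h 27-2 (-3.58, adjusted p = 0.0411), and not in the other alternatives.

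ADAMTS3 was at 0.629, 0.953, 0.856 and 2.01 CPM in WT solvent and at 0.703, 0.243, 0.653 and 0.548 CPM at 72 h. Mut libraries had 1.35, 1.46, 2.25 and 2.13 CPM in solvent and 0.795, 0.367, 1.28 and 0.760 CPM at 72 h. The mut groups did not overlap and the WT groups did. ADAMTS3 fell by 1.31 in mut (SE 0.37, adjusted p = 0.0109), a call lost without series 1-2 (-1.04, adjusted p = 0.0695). In WT the change was -0.99 ± 0.46 (adjusted p = 0.0738), and -1.04 with the series block (adjusted p = 0.013). Without WT solvent 27-1 it was -1.23 (adjusted p = 0.0338), and it was not called in the other alternatives.

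Of the remaining ADAMTS enzymes, ADAMTS7, which cleaves cartilage oligomeric matrix protein, was at 20.2, 18.0, 24.3 and 27.3 CPM in WT solvent and at 27.7, 24.3, 33.8 and 36.8 CPM at 72 h. Mut libraries had 24.3, 19.8, 23.1 and 22.6 CPM in solvent and 39.6, 42.0, 38.0 and 49.8 CPM at 72 h. WT libraries overlapped between solvent and 72 h, and mut libraries at 72 h were above all of these WT libraries. ADAMTS7 rose by 0.44 ± 0.16 in WT (adjusted p = 0.0232) and by 0.91 ± 0.15 in mut (adjusted p = 5.94e-05), and it was higher in mut at 72 h by 0.48 ± 0.15 (adjusted p = 0.00959). The WT call was lost without WT solvent 27-1 (0.39) or 27-2 (0.35) or WT 72 h 2-1 (0.39) or 2-2 (0.35), and the genotype difference without WT 72 h 27-2 (0.37). The interaction was 0.47 ± 0.22 (adjusted p = 0.176), and 0.46 with the series block (adjusted p = 0.0249). ADAMTS12 rose in mut at 72 h by 1.74 ± 0.63 (adjusted p = 0.042), a call kept in 10 of 16 alternatives, with 1.33 ± 0.59 in WT (adjusted p = 0.0576). ADAMTS17 and ADAMTS19 fell in WT at 72 h (-1.07 and -2.01), both under 1 CPM, and the calls held in 8 and 11 of 16 alternatives.

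Among the ADAMTS-like proteins, ADAMTSL4, a fibrillin-binding protein (chromosome 1, 150549369 to 150560937, plus strand), was at 32.1, 23.9, 39.95 and 24.0 CPM in WT solvent and at 9.25, 8.78, 11.6 and 7.31 CPM at 72 h. Mut libraries had 16.2, 12.5, 18.5 and 16.3 CPM in solvent and 10.9, 6.93, 10.6 and 8.65 CPM at 72 h. The genotypes were separate in solvent and overlapped at 72 h. ADAMTSL4 was lower in mut in solvent by -0.90 ± 0.16 (adjusted p = 0.000249), and it fell at 72 h by 1.70 in WT (SE 0.18, adjusted p = 1.66e-08) and by 0.80 in mut (SE 0.19, adjusted p = 0.0029). The smaller fall in mut gave interactions of 1.02 ± 0.25 at 24 h (adjusted p = 0.00951) and 0.90 ± 0.27 at 72 h (adjusted p = 0.025). The call at 72 h was lost without WT solvent 2-1 (0.75), WT 72 h 2-2 (0.80), mut solvent 1-2 (0.80), mut 72 h 1-1 (0.80) or mut 72 h 65-1 (0.83). The gene overlaps MCL1 on the opposite strand, and how reads in the shared stretch were counted is not known. ADAMTSL5 rose by 1.04 ± 0.12 in WT and 0.54 ± 0.13 in mut at 72 h and was lower in mut there by -0.77 ± 0.11 (adjusted p = 3.41e-06).

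The comparison of mut with WT at each treatment gives these differences together. In solvent, 1 member was higher and 6 were lower in mut, where 6.38% of all genes were higher and 6.32% lower. At 6 h, 3 were higher and 12 lower, against 11.3% and 10.0% of all genes, and with TMM factors 1 and 12, against 10.5% and 10.9%. At 24 h, 4 were higher and 16 lower, against 24.7% and 12.2%, and with TMM factors 3 and 16, against 16.1% and 17.2%. At 72 h, 6 were higher and 17 lower, against 26.0% and 13.2%, and with TMM factors 6 and 21, against 18.7% and 17.8%. The excess of higher over lower calls among all genes at these times thus depended on the scaling. Lower in mut in all 4 treatments were ADAM19, ADAMTS6, MMP9 and MMP10, as were 3.01% of all genes. The solvent call of each of these 4 was lost in some alternatives, as given above. At all 3 TGFβ1 times, 8 were lower, these 4 and ADAMTS15, MMP1, MMP14 and TIMP2, against 5.57% of all genes. The median difference of the 47 members was -0.18 in solvent and then -0.17, -0.22 and -0.12 along the TGFβ1 times, and that of all genes -0.01, 0.02, 0.09 and 0.10. With TMM factors the median of all genes was 0.006 at 24 h and 0.015 at 72 h. In bulk RNA, a change in the share of cells that express a gene and a change in RNA per cell cannot be told apart.

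**Figure D3:**
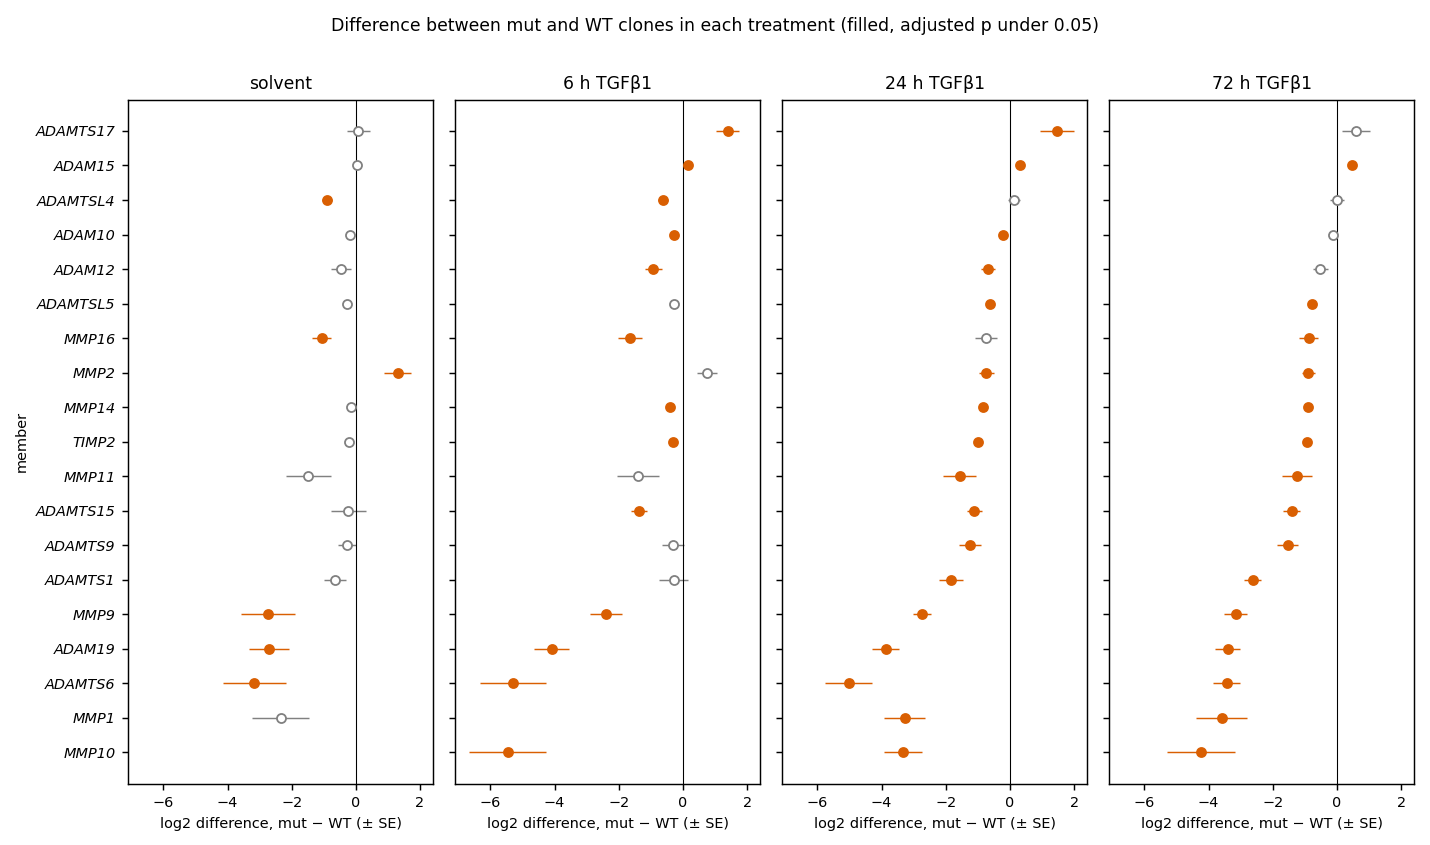
Difference between mut and WT clones (log2, mut minus WT, ± SE) in solvent and at 6, 24 and 72 h of TGFβ1 for 19 members called in 2 or more of these states. Filled points have an adjusted p under 0.05. MMP1 at 6 h and MMP10 in solvent are not drawn, since mut libraries were at 0 or, in 1 library, at 2 counts, and the other values of these 2 genes depend on the offset added to low counts. At 72 h, 17 of the 19 lie below 0, ADAMTSL4 among them at -0.00. The 19 were picked by calls in these same comparisons, and no share of all genes picked likewise is given. The count of 17 is therefore not a result about the members.

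Genes that activate or guide these proteases were read from a list of 21, of which 20 were in the table and 18 were tested. At 72 h, 5 rose and 4 fell in WT, and 5 rose and 2 fell in mut, against the 13.9% and 38.4% of all genes in WT and 7.81% and 16.3% in mut given above. PLAU, the plasminogen activator at the head of a cascade that can activate MMP precursors, was at 155.5, 252, 139 and 81.7 CPM in WT solvent and at 934, 1097, 903 and 1152 CPM at 72 h. Mut libraries had 83.2, 177, 85.4 and 88.1 CPM in solvent and 404, 652, 373 and 474 CPM at 72 h. All libraries at 72 h were above all solvent libraries, and mut libraries at 72 h were below all WT ones. PLAU rose by 2.81 ± 0.24 in WT (adjusted p = 4.29e-10) and by 2.18 ± 0.24 in mut (adjusted p = 2.01e-07), with a smaller response of mut at 24 h (-1.20 ± 0.35, adjusted p = 0.0269). At 72 h that difference was -0.62 ± 0.35 (adjusted p = 0.253). FURIN, the convertase that removes the propeptides of MMP14 and of most ADAMs and ADAMTS enzymes, rose by 0.56 ± 0.06 in WT, from a mean of 254 to 376 CPM, and by 0.46 ± 0.06 in mut, from 251 to 345.5 CPM. RHBDF1, a rhomboid-like regulator of ADAM17 maturation, rose by 1.15 ± 0.12 in WT and by 0.65 ± 0.12 in mut at 72 h, with an interaction of -0.50 ± 0.17 (adjusted p = 0.047). FRMD8 fell in WT at 72 h by 0.47 (SE 0.10, adjusted p = 0.000293), with -0.05 ± 0.10 in mut. Its interaction was 0.42 ± 0.14 (adjusted p = 0.045). At 24 h the interaction of PCSK6 was 0.58 ± 0.17 (adjusted p = 0.0253). Of the 18, 1 had a called higher and 1 a called lower response in mut at 72 h, against 9.40% and 2.92% of all genes. At 24 h these were 1 and 2, against 7.72% and 1.93%. RECK, a membrane inhibitor of MMPs, RHBDF2, TSPAN15, TSPAN33 and A2M were called in no comparison.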

How the data were processed

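The TruSeq RNA v2 kit used keeps no strand. Per the labels and the study's methods, the authors trimmed reads with Trimmomatic, aligned them to GRCh38 (Ensembl) and counted them per gene with STAR, and the deposited counts are raw reads per gene. The strand setting and annotation release are not given in the sources used here. Of counts from 1 to 9, 81.8% were even, against 51.6% of counts from 100 to 999.

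Counts were scaled by library size and fitted with limma 3.58.1 (voom, R 4.3.3) over all 32 libraries, with 1 coefficient per group, after the low-count filter of edgeR 4.0.16 (filterByExpr, at least 10 counts in enough libraries and 15 in all), which left 14865 genes. p-values are two-sided and Benjamini-Hochberg adjusted over these genes for each of 13 comparisons. Symbols, coordinates and transcript lengths came from GENCODE 44. The procedure was tested on simulated data. Alternatives were TMM factors, the edgeR quasi-likelihood test, DESeq2 1.42.0, other filters, summed replications, blocks and left-out libraries. Libraries of the same clone and replication pair across treatments by clone, and their deviations correlated by 0.346 on average (lowest 0.0225, other series -0.0396).

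Values per library are given for TIMPs and for called members among the 4 largest changes in either direction, in both 72 h responses, the solvent and 72 h genotype differences and the 72 h interaction, with a mean of at least 1 CPM. Members and lists were chosen with earlier results of these data known. A count of 0 allows up to 3 counts, or 0.0549 to 0.0756 CPM by library, for counting error only and if single counts are independent. Since 81.8% of counts from 1 to 9 were even, the floor may lie higher and the bounds for MMP1 and MMP3 lower.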

Additional observations from a re-analysis of the deposited data

Results flagged for a closer look

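A library was tested for standing apart from its group by Dixon's rule in 124 combinations of a named member and a group, and 7 were flagged. Chance flags about 1 in 20 groups. The WT series 27-2 gave 3 of them, with ADAM15 at 645 CPM and MMP14 at 318 CPM in solvent and ADAM8 at 25.1 CPM at 24 h. The mut series 1-2 gave ADAM19 at 58.4 CPM in solvent, far above its group, and at 20.0 CPM at 24 h, below its group. The others were MMP9 at 1.36 CPM in WT solvent 2-2 and ADAMTS3 at 1.41 CPM in mut 6 h 65-1.

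The response to TGFβ1 differed between WT and mut clones by the interaction term of limma-voom for 8 members. At 24 h the mut response minus the WT response was -2.04 for MMP2, -0.77 for TIMP2 and -0.66 for MMP14, and 1.02 for ADAMTSL4 and 0.28 for ADAM15. At 72 h it was -3.17 for ADAMTS5, -2.19 for MMP2, -1.99 for ADAMTS1, -0.75 for MMP14 and -0.71 for TIMP2. It was 0.90 for ADAMTSL4, 0.61 for TIMP3 and 0.44 for ADAM15 at that time. ADAM15 at 24 h was not called with TMM factors (0.19).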

How the results depend on the processing

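Alternatives are compared by the number of members called, without the share of all genes called under each. With each series as a replicate block, 20 members were called at 6 h in WT (11 without the block), 7 at 6 h in mut (1), 9 for the interaction at 24 h (5) and 17 at 72 h (8). The block moved no other count of calls by over 1.5 times. At 6 h in mut, edgeR's quasi-likelihood test called 2, DESeq2 2, the fit without series 27-2 3 and that without series 1-2 2. Summing the replications of a clone left 9 of 16 calls at 24 h in mut. A mean count of at least 50 left 13 of 20 members lower or higher in mut at 24 h, with fewer genes tested. Without series 1-2 the interaction at 24 h had 3 calls. Leaving out 1 library at a time gave 7 to 11 calls at 6 h in WT, the 7 without 2-2 in solvent or at 6 h. It gave 1 to 5 at 6 h in mut, the 5 without 1-2 at 6 h, and 3 to 7 for mut against WT in solvent. There 4 were called without mut solvent 1-1 or 65-1 and 3 without 65-2. The cause of these shifts was not tested, and no called value changed sign. Without series 1-2 the 72 h interactions that were not called changed from -0.69 to 0.28 for ADAM19, from -0.27 to 0.41 for ADAMTS6 and from -0.40 to 0.01 for MMP9. For values of single members, 1687 kept direction and call, 69 lost and 26 gained a call, and 53 moved. Depth limits the members under 1 CPM, such as MMP1, MMP3 and ADAMTS5, where a library holds few counts.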
